A study of Mus musculus with 10 samples.

Results

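The 9 genes that encode the pore-forming subunits of AMPA receptors (Gria1, Gria2, Gria3, Gria4) and kainate receptors (Grik1, Grik2, Grik3, Grik4, Grik5) were followed in RNA sequencing libraries made from sorted cells of the mouse hippocampus. They were taken by symbol from the 53379 genes in the count data, and all 9 had enough counts to be tested among 19754 genes. The genes were chosen by earlier results on these same libraries, in which glutamate receptor genes had higher fold changes in the aversive and appetitive groups against the neutral group, so the values of those 2 contrasts are given as a description and no p-value is given for a member there. Counts of called members in those contrasts follow from that choice, and nothing is read from them. The study asked whether hippocampal cells active during an aversive, an appetitive or a neutral experience differ in the genes they express. Male mice of 5 weeks carried 2 viruses, AAV9-TRE-ChR2-EYFP and its driver AAV9-c-Fos-tTA, which label cells with EYFP when the c-Fos promoter is active and doxycycline is withdrawn, and EYFP cells were sorted from the dissociated hippocampus.

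The aversive group (2 libraries, replicates 1 and 3) was tagged while mice received 4 foot shocks of 2 s and 1.5 mA. The appetitive group (2 libraries) was tagged while males spent 1 h with a female in a clean cage, and the neutral group (3 libraries) while mice explored the conditioning cage with no stimulus. The mock group (3 libraries) came from males kept in the home cage, described in the methods as an untagged control of 2 mice, so that its 3 libraries cannot all be separate animals, although the labels assign ChR2-YFP to every group. Tissue of 8 mice was pooled for each of the other conditions, and no source assigns the libraries within 1 group to separate pools, so n counts libraries and the p-values measure a spread that may be technical. The c-Fos promoter limits the label to recently active cells without choosing a cell type. The neutral libraries were sequenced as paired 100 bp reads and the other 7 as single 40 bp reads. The labels also name their kits differently, SMART-seq v4 for the neutral libraries and SMARTerUltra-lowPOLYA-V4 for the other 7. The paper's methods name only SMART-Seq v4, so whether the kits differed is not settled. In any comparison with the neutral group, the sequencing, any difference of kit and the experience cannot be told apart.

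AMPA receptors are the glutamate-gated channels that carry most fast excitatory transmission in the hippocampus. They are tetramers of GluA1 to GluA4, and a GluA2 subunit whose RNA has been edited makes the channel nearly impermeable to calcium. Kainate receptors are built from GluK1 to GluK3, which can form channels on their own, and from GluK4 and GluK5, which need one of the former as a partner. They act both at postsynaptic sites and on presynaptic terminals, and in the hippocampus they are best known at mossy fibre synapses. Astrocytes and oligodendrocyte precursors also express AMPA receptor genes.

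The libraries held 16968588 to 67650693 counts assigned to genes. Library composition differed widely, with 10 oligodendrocyte markers summing to between 7560 and 806500 CPM (counts scaled to library size with TMM factors), the highest sum being that of appetitive replicate 1. In that library 43.4% of the tested genes had more than 3 counts, against 97.9% in mock replicate 3. The 8 markers of choroid plexus and ependyma summed to 21270 to 130600 CPM in the neutral libraries and to 848.9 to 13750 CPM in the others. The neutral sums were nearly all Ttr, at 128900, 20730 and 93600 CPM. All 8 markers had a positive log2 fold change in neutral against mock, but not all set the neutral libraries apart. Ccdc153 had 5.92 to 63.3 CPM in neutral and 0 to 73.55 CPM in the others, and Tmem212 11.96 to 71.1 and 0 to 118.2 CPM. Markers of neurons in general were present throughout, with summed levels of 233.5 to 694.6 CPM in the mock, aversive and appetitive libraries and 155.1 to 270.5 CPM in the neutral libraries, and no more than 2 of the 10 were at 0 in any library. In such bulk libraries, fewer cells of a type and less RNA per cell cannot be told apart.

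Promoters of 6 of the 9 genes were found in the RefSeq table for GRCm38.p6, which covers 250 bases before to 50 bases after the start. Those of Gria2 and Grik2, the members whose 3 neutral libraries all lay below the other 7, are shown beside that of Grik5, the kainate subunit that was abundant in the neutral libraries. Gria2 lies at chr3:80802786-80803085 on the minus strand, Grik2 at chr10:49788705-49789004 on the minus strand and Grik5 at chr7:25072320-25072619 on the minus strand. Capitals mark matches to the GC box GGGCGG, and all 3 sequences read 5′ to 3′ along the gene.
Gria2: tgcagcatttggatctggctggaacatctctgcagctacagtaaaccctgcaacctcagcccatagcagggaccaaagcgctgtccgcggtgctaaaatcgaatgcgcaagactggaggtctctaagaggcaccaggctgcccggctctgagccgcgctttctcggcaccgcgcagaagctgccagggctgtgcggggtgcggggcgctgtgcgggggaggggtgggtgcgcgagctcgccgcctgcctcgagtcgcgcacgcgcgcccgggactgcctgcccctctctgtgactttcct
Grik2: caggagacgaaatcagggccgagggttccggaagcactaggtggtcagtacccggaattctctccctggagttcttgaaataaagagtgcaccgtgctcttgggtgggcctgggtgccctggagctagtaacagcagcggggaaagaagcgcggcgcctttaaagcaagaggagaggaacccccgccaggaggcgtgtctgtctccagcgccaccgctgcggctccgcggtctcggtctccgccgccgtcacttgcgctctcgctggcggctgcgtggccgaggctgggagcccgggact
Grik5: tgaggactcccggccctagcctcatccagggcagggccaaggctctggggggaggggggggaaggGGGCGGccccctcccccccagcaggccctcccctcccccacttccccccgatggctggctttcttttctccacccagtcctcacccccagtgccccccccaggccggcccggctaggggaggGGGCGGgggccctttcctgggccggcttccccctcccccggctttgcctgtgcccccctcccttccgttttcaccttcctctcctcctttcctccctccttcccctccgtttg

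A search of both strands found 2 GC boxes in the Grik5 promoter and none in those of Gria2 and Grik2, where 35.9% of 32544 RefSeq mouse promoters of this length held at least 1. None of the 3 held the TATA box TATAAA (13.6% of all promoters), the CCAAT box CCAAT (37.4%), the cAMP response element TGACGTCA (1.8%) or the NRF-1 core CGCATGCG (1.87%). The Gria2 and Grik2 promoters each held 26 CpG dinucleotides and were 65.7% and 64.7% G or C, whereas the Grik5 promoter held 10 CpG dinucleotides at 72% G or C. The median over all promoters was 7 CpG dinucleotides at 53% G or C. Of the other promoters found, that of Grik3 held 7 GC boxes, that of Grik4 held 2 and that of Gria4 held none. No measurement in these libraries bears on the use of these sequences.

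In the mock libraries the AMPA subunits Gria2 and Gria1 had the highest levels per length. Gria2 averaged 5.55 ± 3.23 CPM per kb of exon (SD, n = 3) and Gria1 3.87 ± 3.33. Grik5 followed at 1.85 ± 0.651, Gria4 at 1.25 ± 0.901 and Grik2 at 0.871 ± 0.403 CPM per kb. Grik1, Grik4, Gria3 and Grik3 were lower, from 0.525 ± 0.379 for Grik1 down to 0.0753 ± 0.0829 for Grik3. The means of neighbours in this order differed by no more than the larger of their SDs. The genes were measured in the same 3 libraries, and mock replicate 2 had the lowest level of every member, so the SDs are not the spread of a difference. Within libraries, Gria2 was above Gria1 in all 3 (8.354 and 7.551, 2.02 and 1.06, 6.275 and 2.984 CPM per kb). In mock replicate 2, Gria1 was below Grik5 (1.06 and 1.109) and Gria4 below Grik2 (0.2643 and 0.405).

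Gria2, which encodes GluA2 (ENSMUSG00000033981, chr3:80681450-80802835, minus strand, build GRCm38), had the highest level per length of the 9 genes in every mock and aversive library, while Grik2 and Grik1 were above it in appetitive replicate 1 and Gria1 and Gria4 were above it in appetitive replicate 2. It stood at 129.9, 31.4 and 97.6 CPM in mock, 56.9 and 551.8 CPM in aversive, 203.8 and 91.8 CPM in appetitive, and 0.221, 0 and 0.18 CPM in neutral libraries. The neutral values rest on 14, 0 and 14 counts, and all of them lay below the other 7 libraries. The aversive libraries differed from each other 9.71-fold and enclosed both appetitive libraries, with mock replicate 2 below them.

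Gria1 encodes GluA1, the subunit added to synapses during long-term potentiation (ENSMUSG00000020524, chr11:57011387-57330244, plus strand). Its levels were 45.6, 6.41 and 18.0 CPM in mock, 12.9 and 69.1 CPM in aversive, 0.0782 and 42.9 CPM in appetitive, and 0.536, 0.497 and 4.42 CPM in neutral libraries. The neutral libraries lay below every mock and aversive library, while appetitive replicate 1, with 1 count, lay below them all.

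Gria3 encodes GluA3 (ENSMUSG00000001986, chrX:41400854-41678601, plus strand) and was a minor subunit. It had 3.42, 0.156 and 3.94 CPM in mock, 0.1 and 21.3 CPM in aversive, 0 and 0.0524 CPM in appetitive, and 0.331, 1.27 and 0.0257 CPM in neutral libraries. The appetitive libraries, with 0 and 1 counts, were below both aversive libraries, which were themselves 213-fold apart.

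Gria4 encodes GluA4, a subunit associated with interneurons (ENSMUSG00000025892, chr9:4417896-4796234, minus strand). It was at 0 in aversive replicate 1, appetitive replicate 1, neutral replicate 1 and neutral replicate 3, and reached 15.6 CPM in aversive replicate 3, 64.6 CPM in appetitive replicate 2 and 8.14 CPM in neutral replicate 2. The mock libraries had 9.12, 1.67 and 12.8 CPM. Aversive, appetitive and neutral groups therefore each held a library without the transcript and one with 705 counts or more.

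**Figure D1:**
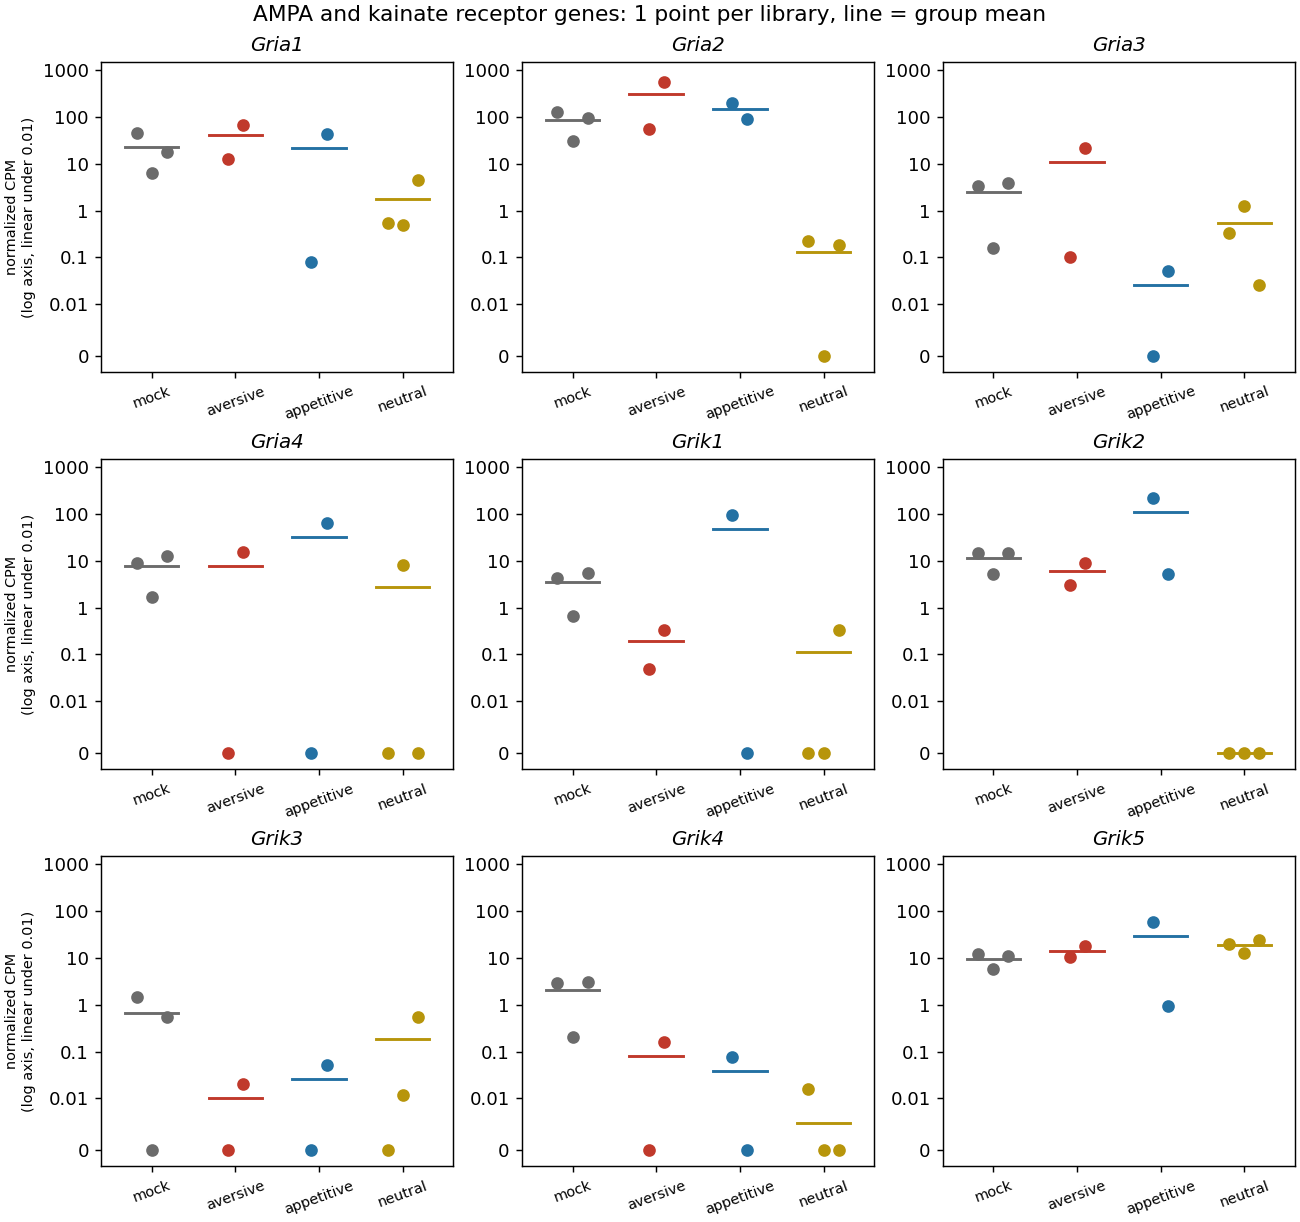
Normalized CPM of the 9 receptor genes in each of the 10 libraries, by group, on a log axis that is linear under 0.01 so that 0 can be shown. Each point is a library and each line a group mean. Gria2 and Grik2 are lower in all 3 neutral libraries than in the other 7, and Grik5 is at 12.7 to 24.2 CPM there.

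Among the kainate subunits, Grik2 had the clearest split between the neutral libraries and the rest. Grik2 encodes GluK2, a core channel-forming subunit (ENSMUSG00000056073, chr10:49094833-49788766, minus strand). Its levels were 14.7, 5.36 and 14.5 CPM in mock, 3.05 and 9.24 CPM in aversive, and 216.7 and 5.13 CPM in appetitive libraries. None of the 3 neutral libraries had a count, where 3 counts would have been 0.0473, 0.0347 and 0.0385 CPM. The 2 appetitive libraries were 42.2-fold apart, and appetitive replicate 2 lay below all 3 mock libraries.

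Grik1, which encodes GluK1 (ENSMUSG00000022935, chr16:87895900-88290265, minus strand), reached 95.1 CPM in appetitive replicate 1 and was at 0 in appetitive replicate 2. The mock libraries had 4.34, 0.677 and 5.57 CPM and the aversive libraries 0.05 and 0.341 CPM. It was at 0, 0 and 0.334 CPM in the neutral libraries. Both aversive and all neutral libraries were below the mock libraries.

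Grik3, which encodes GluK3 (ENSMUSG00000001985, chr4:125490700-125714173, plus strand), was the least abundant member in mock. It had 37, 0 and 40 counts in mock, 0 and 1 in aversive, 0 and 1 in appetitive, and 0, 1 and 43 in neutral libraries. At this depth no fold can be given between the aversive and appetitive groups.

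The partner subunits behaved differently from each other. Grik4, which encodes GluK4 (ENSMUSG00000032017, chr9:42518135-42944493, minus strand), had 75, 4 and 225 counts in mock, 0 and 8 in aversive, 1 and 0 in appetitive, and 1, 0 and 0 in neutral libraries. Each mock library was above the other groups' libraries in CPM. Grik5, which encodes GluK5 (ENSMUSG00000003378, chr7:25009849-25072346, minus strand), was the one member with at least 18 counts in every library. It stood at 12.1, 5.73 and 10.8 CPM in mock, 10.4 and 17.8 CPM in aversive, 58.6 and 0.943 CPM in appetitive, and 19.8, 12.7 and 24.2 CPM in neutral libraries. All 3 neutral libraries were above the mock libraries, and the appetitive libraries enclosed every other value.

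The detection of the family as a whole varied with the library. More than 3 counts were found for 9, 7 and 9 of the members in mock, 4 and 8 in aversive, 4 and 5 in appetitive, and 4, 4 and 5 in neutral libraries. Aversive replicate 1 and appetitive replicate 1, both rich in oligodendrocyte markers (411600 and 806500 CPM), each had 3 members at 0. Mock replicate 1, with 367100 CPM of the same markers, had none at 0, and the part of these markers in the result was not tested.

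Relative to the summed AMPA subunits, per length, Gria2 made up 47.2%, 60.1% and 53.7% in mock and 63% and 68.8% in aversive libraries. The appetitive libraries diverged, with Gria2 at 99.9% in replicate 1 and 25.4% in replicate 2, where Gria4 contributed 44.1% and Gria1 30.5%. In the neutral libraries Gria2 made up 10.4%, 0% and 1.55%, while Gria1 made up 65% and 98.1% in replicates 1 and 3 and Gria4 86% in replicate 2. The neutral shares rest on 69, 858 and 360 AMPA subunit counts, against 761 to 32823 in the other libraries.

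Grik2 made up 23.3%, 24.6% and 23.8% of the summed kainate subunits per length in the mock libraries, a far narrower range than its level had. It was 10.3% and 16.5% in aversive, 39.1% and 67.3% in appetitive and 0% in all neutral libraries. Grik5 accounted for 45.4% to 67.2% in mock, 81.6% and 89.4% in aversive, 27.1% and 31.7% in appetitive and 97.7% to 99.9% in neutral libraries. The Grik2 share was thus ordered appetitive, mock, aversive, neutral with no overlap between groups, although its level overlapped among the first 3 groups. This order was noticed in the data and was not tested, and appetitive replicate 2 held only 117 kainate subunit counts.

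**Figure D2:**
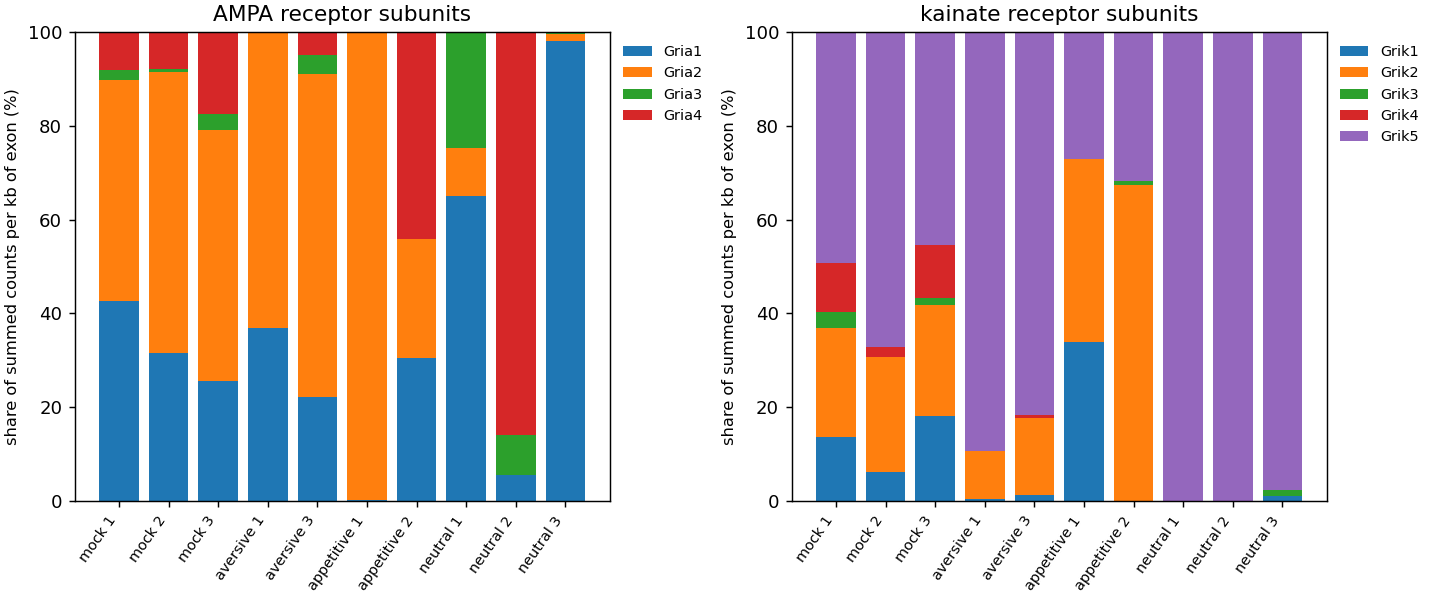
Share of each subunit in the summed counts per kb of exon of its family (%), 1 bar per library, AMPA subunits on the left and kainate subunits on the right. Gria2 makes up 47.2% to 68.8% of AMPA subunits in mock and aversive libraries, and Grik5 97.7% to 99.9% of kainate subunits in neutral libraries.

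Appetitive and aversive libraries were compared to ask whether tagging by opposite experiences separated these genes. None of the 9 passed an adjusted p of 0.05 in edgeR's quasi-likelihood test, where 1.8% of all tested genes did, and adjusted p ranged from 0.212 to 0.954. On the log2 scale the difference was -1.04 ± 1.41 (SE, adjusted p = 0.79) for Gria2, 4.17 ± 1.79 (adjusted p = 0.242) for Grik2 and 7.86 ± 3.62 (adjusted p = 0.255) for Grik1. The values for Grik1 and Grik2 turned on appetitive replicate 1, without which they were -6.28 and -0.39. DESeq2 called Grik1 (higher) and Gria3 (lower in appetitive), where it called 23.3% of the genes it gave an adjusted p. Only Gria3 had groups that did not overlap, lower in appetitive, as had 20.1% of all tested genes in that direction. The median log2 fold change of the members was 1.07, against -0.48 over all tested genes. That median is the value of Grik3, which had 0 and 1 counts in each group. With the 3 members near 0 set at 3 counts the median was 1.08. That floor, 0.235 CPM in appetitive replicate 1, lies above the aversive mean of Grik4 (0.0802 CPM). Neither median therefore gives a direction for the members, of which 5 had positive and 4 negative values.

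Aversive libraries were compared with mock, a contrast in which edgeR called nothing. No member passed in edgeR's test and neither did any other gene (0%), although 1968 genes had an unadjusted p under 0.05 and the DESeq2 test called 1467. Gria2 differed by 1.82 ± 1.26 on the log2 scale (SE, adjusted p = 0.617), which was -0.61 without aversive replicate 3. Grik1 (-4.11 ± 2.97, adjusted p = 0.631) and Grik4 (-4.59 ± 2.55, adjusted p = 0.531) were lower in both aversive libraries than in every mock library, as were 24.7% of all tested genes. The members' median log2 fold change was -0.01, against -0.13 over all tested genes.

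Appetitive libraries were also compared with mock, and again no member was called, against 1.98% of all tested genes. Grik2 differed by 3.26 ± 1.47 on the log2 scale (SE, adjusted p = 0.216) and Grik1 by 3.75 ± 2.54 (adjusted p = 0.355). Without appetitive replicate 1 these became -1.39 and -10.5. Gria2 differed by 0.78 ± 1.25 (adjusted p = 0.714) and by -0.14 without that library. Gria3, which DESeq2 called lower in a test that called 26.1% of its genes, and Grik4 were below every mock library, as were 38.9% of all tested genes. The members' median was 0.78, where that of all tested genes was -1.45.

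Neutral libraries were compared with mock, which shares its libraries with the contrasts on which the genes were chosen, so the following p-values are not independent of that choice. No member was called and 0.0861% of all tested genes were. Gria2 differed by -9.32 ± 1.64 on the log2 scale (SE, adjusted p = 0.075). Without any one mock or neutral library the adjusted p of the same test was 0.0819 to 0.293. DESeq2 called Gria2, Grik2 and Grik4, all lower in neutral, where it called 7.76% of its genes. Grik2 was at least 244-fold lower than in mock, taking 3 counts per library as the floor (adjusted p = 0.102). Gria1 differed by -3.68 ± 1.81 (adjusted p = 0.417), Grik1 by -4.95 ± 2.59 (adjusted p = 0.466) and Grik5 by 0.99 ± 1.24 (adjusted p = 0.856).

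Gria1, Gria2, Grik1, Grik2 and Grik4 lay below mock without overlap, as did 15.9% of all tested genes, and Grik5 lay above mock, as did 16% of all tested genes. The members' median log2 fold change was -3.68 and that of all tested genes 0.08. The low neutral values are those by which the genes were chosen, so these counts and directions are a description only. Each of the 9 members kept its direction in this comparison under all alternative settings that could test it, which the choice of the genes favoured in advance. The count was 5 in aversive and 3 in appetitive libraries compared with mock, and 1, Gria3, in appetitive against aversive libraries. These groups hold 2 libraries, so leaving out 1 leaves a single library, and the counts cannot be set against each other. The share of all tested genes that kept their direction was not computed.

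Against the neutral group, the contrasts that chose the genes, the levels differed as follows. Gria2 was higher by 11.1 ± 1.77 on the log2 scale (SE) in aversive and by 10.1 ± 1.71 in appetitive libraries. Grik2 was at least 130-fold higher in aversive libraries and, in appetitive libraries, higher at least 2340-fold, the latter resting mainly on appetitive replicate 1. Gria1 was higher by 4.49 ± 1.94 in aversive libraries, and Grik5 differed by -0.43 ± 1.39 in aversive and 0.65 ± 1.36 in appetitive libraries.

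In aversive against neutral libraries no member and 0.0405% of all tested genes were called, and Gria1, Gria2 and Grik2 lay above neutral without overlap, as did 14.4% of all tested genes. In appetitive against neutral libraries Gria2 and Grik2 were among the 6.17% of tested genes that were called and among the 11.4% that lay above neutral without overlap. Both contrasts use the same 3 neutral libraries, and these counts restate the values by which the genes were chosen.

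**Figure D3:**
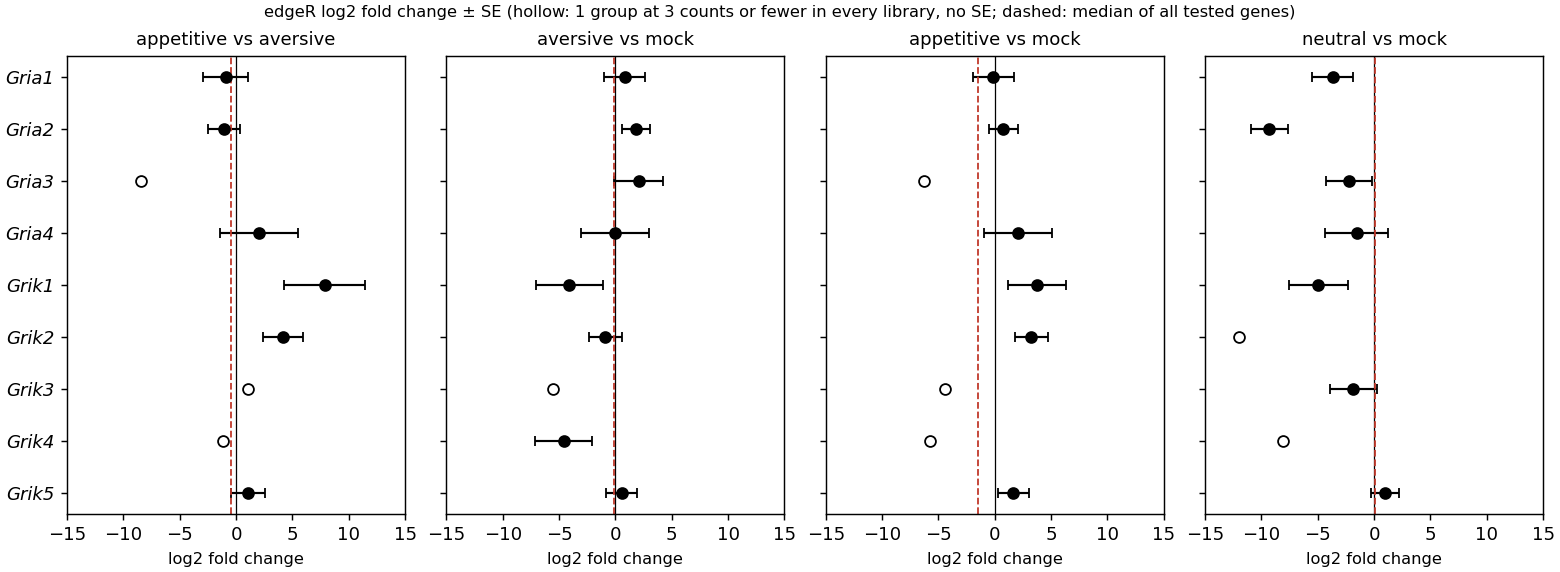
The log2 fold change of each receptor gene with its standard error in the 4 comparisons that did not choose the genes. Hollow points have a group at 3 counts or fewer in every library and their size depends on the prior count, and dashed lines mark the median of all 19754 tested genes. Gria2 stands at -9.32 in neutral against mock, and none of the 9 receptor genes passed an adjusted p of 0.05 in edgeR's test.

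Cell type markers moved with the neutral values of Gria2 and Grik2. The summed level of 10 astrocyte markers was 468 to 483.7 CPM in the neutral libraries and 3564 to 16110 CPM in the other 7, and 3 of them, Aldoc, Slc1a3 and Slc1a2, were called lower in neutral than in mock. Of the 10, 9 had a negative log2 fold change in that comparison. Sox9 went the other way, with 272.5, 96.5 and 192.1 CPM in neutral and 170, 70.8 and 122.6 CPM in mock libraries. The summed level of 10 excitatory pyramidal neuron markers was 12.6 to 41.1 CPM in neutral libraries, with 1 to 5 of them at 0, and 66.6 to 377.8 CPM in the others. The others had 0 or 1 of the 10 at 0 in mock, 4 and 1 in aversive, and 5 and 7 in appetitive libraries. In appetitive replicate 2 the sum of 316.6 CPM was nearly all Prox1, a dentate granule cell marker, at 315.7 CPM, and the other 9 markers summed to 0.89 CPM, below every neutral library, so that the neutral libraries did not stand apart on the pyramidal markers without Prox1. Sums of general neuron markers overlapped between neutral and the other libraries only through neutral replicate 1, at 270.5 CPM. Eno2 made up 195.2 CPM of that sum. In neutral against mock, 8 of these 10 markers had a negative log2 fold change and 2 a positive one (median -1.36, against 0.08 over all tested genes). Oligodendrocyte precursor markers summed to 86.5 to 571.4 CPM in neutral and 623.7 to 1388 CPM in the others, and microglia markers to 45.1 to 372.2 and 1029 to 9778 CPM. The precursor markers did not all follow their sum. Pdgfra had 2.07 to 7.94 CPM in neutral and 0 to 0.15 CPM in aversive and appetitive libraries, and Cspg4 11.6 to 115.8 and 0.1 to 3.53 CPM. Of the 8 precursor markers, 6 had a positive log2 fold change in aversive against neutral and 5 in appetitive against neutral. The part of these differences in the receptor values was not tested.

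**Figure D4:**
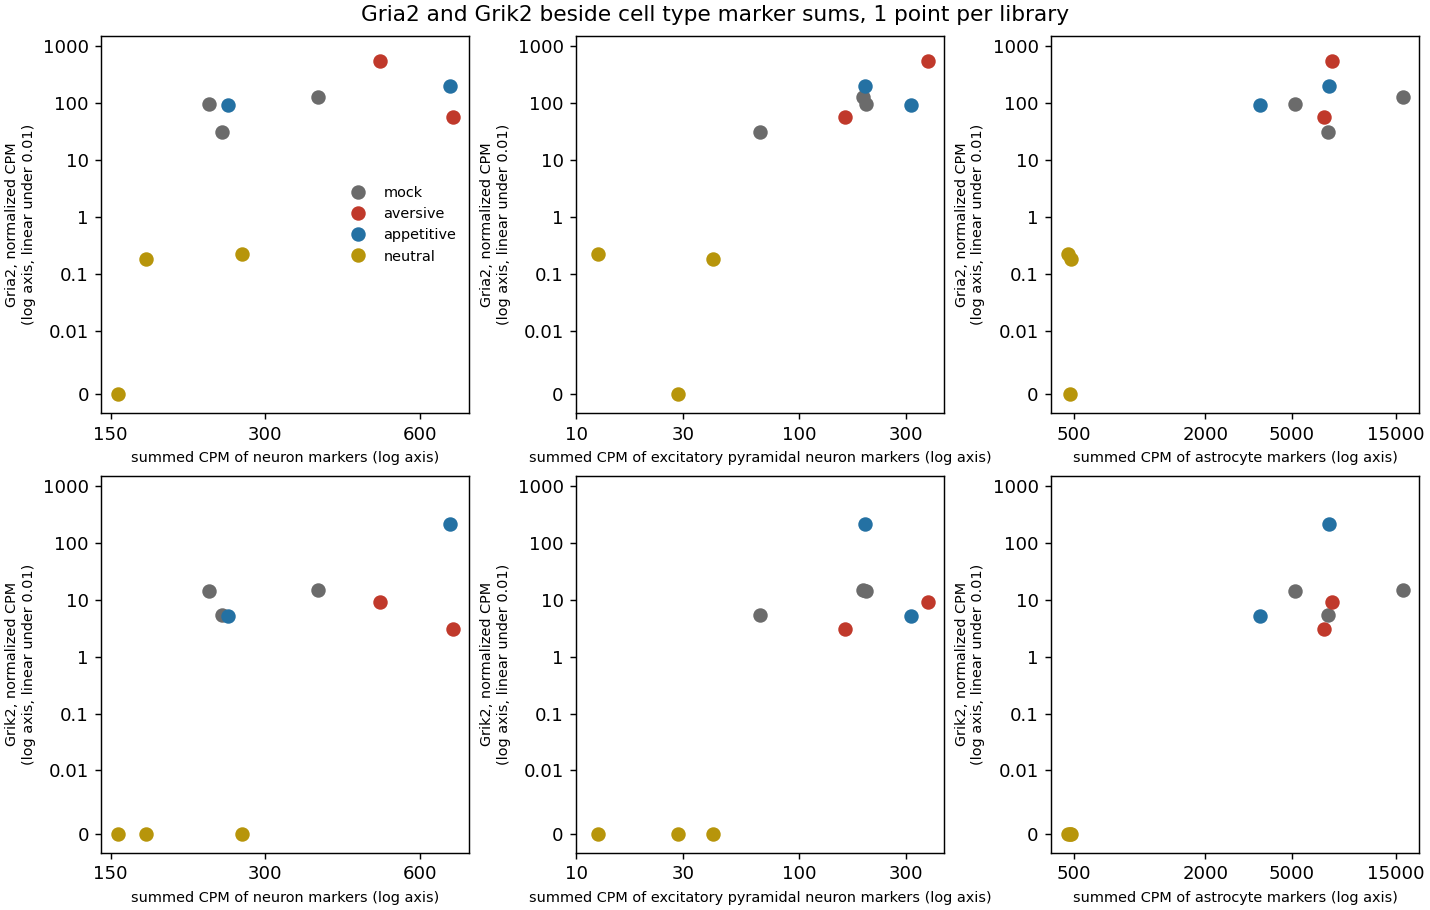
Normalized CPM of Gria2 (upper row) and Grik2 (lower row) against the summed CPM of markers of neurons, excitatory pyramidal neurons and astrocytes, 1 point per library, both axes logarithmic (the vertical one linear under 0.01). The neutral libraries lie apart on the astrocyte axis, at 468 to 483.7 CPM, and, by a sum that rests on Prox1 in appetitive replicate 2, on the pyramidal axis, at 12.6 to 41.1 CPM, and within the range 155.1 to 270.5 CPM on the neuron axis.

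The genes most like Gria2 across the 10 libraries, by Pearson's r of log2 CPM among 15058 protein-coding genes, were Ptprz1 (r = 0.977), Igdcc4 (0.97), Kcnc4 (0.967), Mt2 (0.966) and Slc1a2 (0.961), the last encoding the glial glutamate transporter GLT-1. Those most like Grik2 were Commd8 (0.95), Kcnc4 (0.945), Phactr3 (0.941), Gabbr2 (0.938) and Papss2 (0.937). Gria2 and Grik2 themselves had r = 0.928, the highest of the 36 pairs of members, followed by Grik1 and Grik2 at 0.742. The genes share the depth and composition of each library, and within the 7 libraries outside the neutral group r was lower, from 0.552 to 0.738 for the genes named with Gria2, from 0.438 to 0.91 for those named with Grik2, and 0.445 between Gria2 and Grik2.

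The partners of these receptors were read from 4 lists. Of the 15 auxiliary subunits, which set the gating and trafficking of AMPA and kainate receptors, none was called in any of the 6 comparisons. In appetitive against aversive libraries 11 of the 15 had a negative log2 fold change (median -6.29, or -3.37 with the 12 near 0 set at 3 counts, against -0.48 over all tested genes). Each appetitive library had 11 of the 15 auxiliary genes at 0, Neto1 and Neto2 of kainate receptors among them in both, whereas mock libraries had 0 or 1, aversive libraries 6 and 3, and neutral libraries 7, 10 and 8 at 0. The appetitive libraries had 43.4% and 51.1% of all tested genes above 3 counts, where the others had 60.4% to 97.9%. Cnih2, which promotes export and slows the closing of AMPA receptors, was the most abundant, with 95.2, 66 and 23.9 CPM in mock, 220.2 and 124.6 CPM in aversive, 486.2 and 5.45 CPM in appetitive, and 15.5, 14.9 and 20.3 CPM in neutral libraries. The neutral libraries were below the mock ones (log2 fold change -1.87 ± 1.13, SE, adjusted p = 0.562). Shisa8, another AMPA receptor auxiliary subunit, had 53.6 and 49.9 CPM in appetitive libraries and 2.5 to 7.71 CPM in mock (3.54 ± 2.44, adjusted p = 0.362). It had 32.7 and 0.04 CPM in aversive and 0.631, 24.8 and 0 CPM in neutral libraries.

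Among 20 anchoring and trafficking genes, none was called in the 4 comparisons that did not choose the receptor genes, and the members' signs were mixed (7 positive and 13 negative in appetitive against aversive, median -1.42, or -1.3 with 5 genes set at 3 counts). Olfm1, a secreted protein found in AMPA receptor complexes, ranged from 32.9 CPM in mock replicate 3 to 2201 CPM in appetitive replicate 1. Dlg1, which encodes the scaffold SAP97, had 72.3 to 98.2 CPM in mock, 72.8 and 124.8 CPM in aversive, 1.72 and 76.6 CPM in appetitive, and 13.5 to 44.9 CPM in neutral libraries. Dlg3, which encodes the scaffold SAP102, had 6 and 1 counts in the appetitive libraries and 168 to 2420 counts in the others, and it was called in appetitive against neutral (log2 fold change -6.51 ± 1.6, SE), a call lost with the compared groups alone, with a replicate block, without appetitive replicate 2 and without any one mock or neutral library. It differed by -7.55 ± 1.7 (adjusted p = 0.0524) against aversive and -5.96 ± 1.56 (adjusted p = 0.0715) against mock.

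One gene of the RNA editing and splicing list separated the appetitive libraries. Adarb1 (ENSMUSG00000020262, chr10:77290726-77418270), which encodes ADAR2, the enzyme that edits the Gria2 transcript at the codon that governs calcium permeability, had no count in either appetitive library. It had 5.97, 8.13 and 10.5 CPM in mock, 11.96 and 27.0 CPM in aversive, and 26.1, 12.5 and 11.3 CPM in neutral libraries, so that the appetitive libraries were below all others. It was at least 83.1-fold lower in appetitive than in aversive libraries (adjusted p = 0.0351) and at least 34.9-fold lower than in mock (adjusted p = 0.0401), taking 3 counts per library as the floor, and at least 71-fold lower than in neutral libraries. Of all tested genes, 1.8% were called against aversive and 1.98% against mock. Lower in appetitive libraries without overlap were 20.1% of all tested genes against aversive and 38.9% against mock. The call against aversive was lost when only the compared groups' libraries were fitted (adjusted p = 0.711), with a replicate block (0.195), and without any one of the 6 mock and neutral libraries (0.0634 to 0.0923), and the call against mock was lost with a replicate block (0.173) and without any one of those 6 libraries (0.0722 to 0.115).

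The editing list as a whole had 1 positive and 5 negative values in appetitive against aversive libraries (median -7.22, or -3.72 with the 4 near 0 set at 3 counts). Adar, which encodes the related enzyme ADAR1, had 3 and 1 counts in the appetitive libraries, 0.16 CPM in aversive replicate 3 and 3.64 to 39.5 CPM in the other 7 libraries, and was not called (adjusted p = 0.208 against aversive and 0.117 against mock). The appetitive libraries also had the fewest detected genes, 14144 and 14658, where the others had 16849 to 30899, and their part in this result was not tested. Gria2, the substrate of this enzyme, was at 203.8 and 91.8 CPM in the same 2 libraries. No RNA editing was measured here.

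Of 9 NMDA and delta receptor genes, 8 were tested and none was called in any comparison. In neutral against mock 7 of the 8 had a negative value (median -6.56, or -5.04 with the 2 near 0 set at 3 counts). Grin2c, which encodes GluN2C, had 111.1, 23.6 and 43.9 CPM in mock and 0, 0.67 and 0 CPM in neutral libraries (-8.03 ± 2.33, SE, adjusted p = 0.174). It had 57.9 and 139.9 CPM in aversive and 0.391 and 17.2 CPM in appetitive libraries, so appetitive replicate 1 lay below neutral replicate 2. Grin2b, which encodes GluN2B, had 1.2 to 8.46 CPM in mock and 0.347 to 0.505 CPM in neutral libraries (-3.58 ± 1.22, adjusted p = 0.218). Its levels were 17.3 and 108.0 CPM in aversive and 4.15 and 2.83 CPM in appetitive libraries. The low neutral values of Gria2 and Grik2 therefore stood beside low neutral values of Grin2c and Grin2b, while Grik5 and Adarb1 were not low there.

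**Figure D5:**
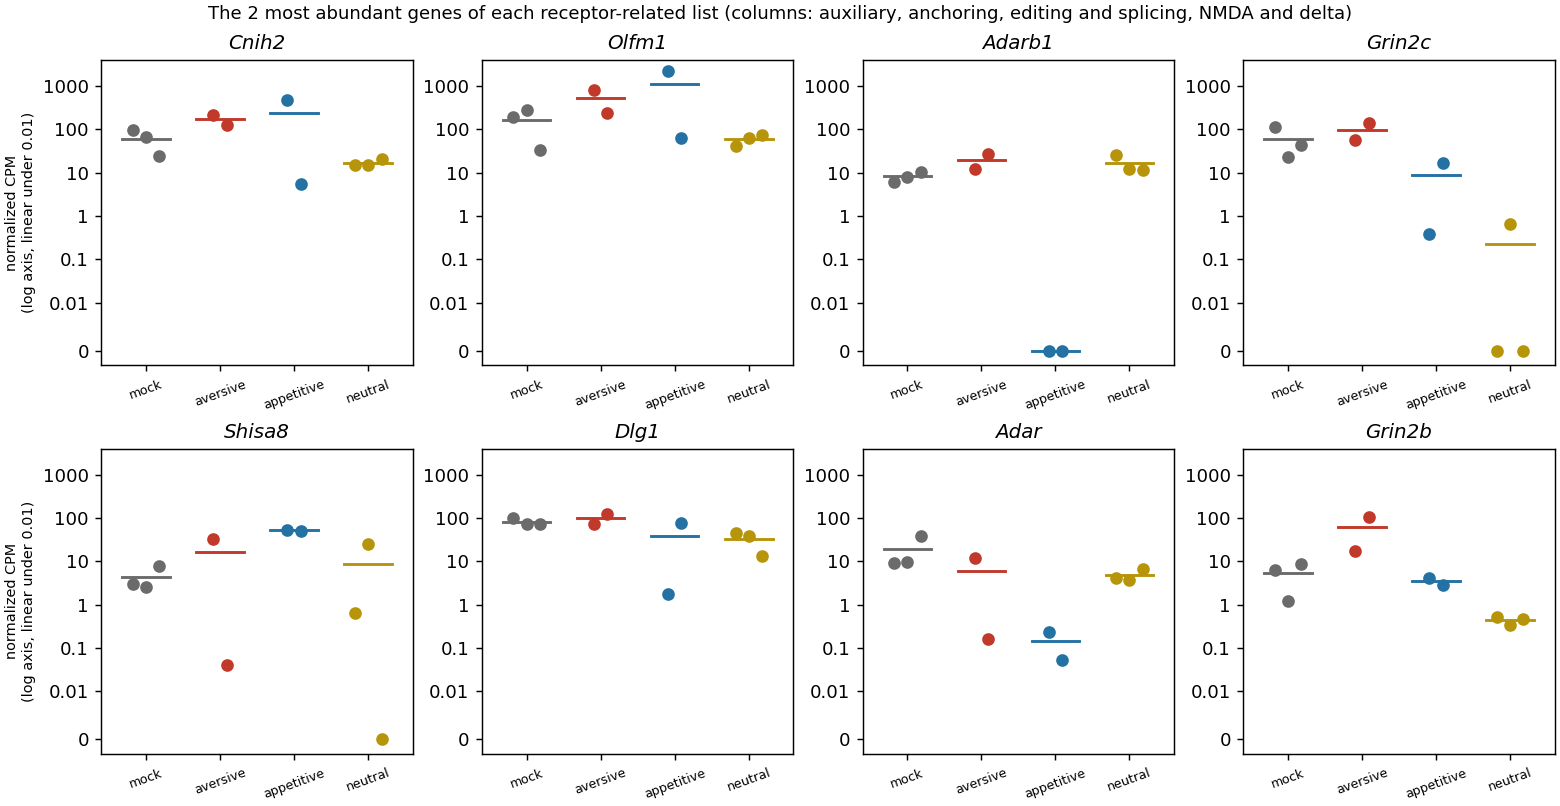
Normalized CPM of the 2 most abundant genes of each receptor-related list, 1 point per library and a line for each group mean, on a log axis that is linear under 0.01. Columns show auxiliary subunits (Cnih2, Shisa8), anchoring genes (Olfm1, Dlg1), editing genes (Adarb1, Adar) and NMDA subunits (Grin2c, Grin2b). Adarb1 is at 0 in both appetitive libraries and between 5.97 and 27.0 CPM in the other 8.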

How the data were processed

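RNA was sequenced from sorted EYFP cells of the mouse hippocampus, in 10 libraries of 4 groups. Reads of all libraries entered the alignment with 40 bp only. The authors aligned them to mm10 with STAR (Ensembl 91 index) and counted them per gene, without strand, with featureCounts of Subread. The deposited values are raw counts per gene, not normalized, with one file per library. Versions of these tools are not given in the sources used here.

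Gene names, positions and exon lengths came from GENCODE M21 (GRCm38), which matched 53274 of 53379 gene identifiers. The 9 members and all lists were chosen with earlier results of these data known. Counts were tested with edgeR 4.0.16 (R 4.3.3; TMM normalization, filterByExpr, quasi-likelihood F test) in 1 fit of all 10 libraries, with p-values adjusted over 19754 genes (Benjamini-Hochberg) and called under 0.05. The SE of a log2 fold change was its absolute value divided by the square root of the F statistic, not a separate estimate. The spread between libraries was wide, with a median coefficient of variation of 119% per gene. CPM were scaled by TMM factors of 0.48 to 1.45, and levels per kb used merged exons. A group at 0 was set at a floor of 3 counts per library for a lower bound of the fold, which covers counting error only. Without strand, reads in bases shared with small RNA genes inside Gria2, Gria3, Gria4 and Grik4 (19 to 111 exonic bases) may be lost. Between 0.0166% and 1.06% of each member's 40-base stretches also occur in other genes. Members, called genes of the 4 receptor-related lists, the 2 most abundant genes of each, and the 5 genes most correlated with Gria2 and with Grik2 are named. Dlg3, Neto1, Neto2, Prox1, Eno2, Sox9, Pdgfra, Cspg4, Ttr, Ccdc153, Tmem212 and the called astrocyte markers were named after their values were seen. Promoters were taken from RefSeq (GRCm38.p6). Alternatives were other scalings, filters, DESeq2 1.42.0, fits of the compared groups alone, a replicate block and leaving out each library. The test was checked on simulated data.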

Additional observations from a re-analysis of the deposited data

How the results depend on the processing

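Of the 9 members, the DESeq2 test called 2 in appetitive against aversive (Gria3 and Grik1), 1 in appetitive against mock (Gria3), 3 in neutral against mock (Gria2, Grik2 and Grik4), 2 in aversive against neutral and 3 in appetitive against neutral, where it called 3956, 4736, 1598, 3354 and 6016 genes in all. With no filter on low counts, 2 were called in neutral against mock (520 genes in all) and 2 in aversive against neutral (863). The counts against neutral use the contrasts by which the genes were chosen and are a description. In appetitive against neutral, 0 were called with at least 10 counts in every library, where Grik5 alone could be tested, and 0 with the compared groups alone. Leaving out 1 library at a time gave 0 to 2 calls in neutral against mock and in aversive against neutral, the 2 appearing without an appetitive library, and 0 to 3 in appetitive against neutral, with 0 without neutral replicate 3. The cause was not tested. Deviations of same-numbered libraries from their group means had r from -0.04 to 0.164 in 12 pairs of different groups, 2 over 0.1. In a group of 2 libraries these deviations mirror each other, so the values cannot decide whether the numbers pair the libraries. With a replicate block, 1 member was called in appetitive against neutral and 0 in the other 5 comparisons, and the log2 fold change of Gria2 in appetitive against aversive became 0.75.

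Without 1 library at a time, log2 fold changes in appetitive against aversive ran from -2.01 to 1.37 for Gria2, -6.28 to 9.81 for Grik1 and -0.39 to 5.18 for Grik2. In aversive against mock that of Gria2 ran from -0.61 to 2.57, and in appetitive against mock those of Gria2, Grik1 and Grik2 ran from -0.14 to 1.06, -10.5 to 4.55 and -1.39 to 4.03. The median of all genes moved with the scaling, in appetitive against mock from -1.45 to -1.17 (DESeq2 size factors) and -1.93 (library size), in appetitive against aversive from -0.48 to -0.34 and -0.88. By raw counts, Gria2 made up 74% of AMPA subunits in mock and 82.6% in aversive libraries, and Grik2 42.7% and 28.1% of kainate subunits. Alternatives for Adarb1 and Dlg3, the pyramidal marker sum without Prox1 and the correlations within 7 libraries were added after seeing the data.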
